A study of Rattus norvegicus with 63 samples.

Results

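Thra and Rarb are a pair of nuclear receptor genes. They were followed here on 63 Affymetrix Rat Neurobiology U34 arrays through every probe set whose only gene symbol was Thra or Rarb. The rule found 5 probe sets, 4 for Thra and 1 for Rarb, among 1263 non-control probe sets that name 720 genes. Thra was chosen by the measured difference of 1 of its probe sets between long and no access in the lateral hypothalamus. Rarb was chosen by its measured signal in the nucleus accumbens relative to the other regions. The values behind those choices are therefore given below as a description, with no test.

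The study compared rats given daily intravenous cocaine self-administration at 0.25 mg per injection with drug-naive rats, 8 rats per group. The groups were no access (0 h per day), short access (1 h per day) and long access (6 h per day). Total RNA came from 6 dissected regions, with 4 arrays for each group of the nucleus accumbens, amygdala and lateral hypothalamus. The medial prefrontal cortex, the ventral tegmental area and the septum had 3 for each group. The strain, sex and age are not given in the sources used here. Nor do those sources say which rats, single or pooled, stand behind an array, so the p-values measure the spread between arrays, which may be partly technical. With 8 rats and 21 arrays in each access group, some arrays must share rats, within or between regions, in a way the sources used here do not give.

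Nuclear receptors are transcription factors whose activity is set by small lipid-soluble ligands. Thra encodes thyroid hormone receptor alpha, the most abundant thyroid hormone receptor of the brain, and alternative splicing also makes a form from it that does not bind the hormone. Rarb encodes retinoic acid receptor beta, which is enriched in the striatum, and both receptors bind DNA together with retinoid X receptors. In mice, loss of Rarb together with a retinoid X receptor lowers dopamine receptor expression in the striatum.

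Rarb is also a known target of retinoic acid, through a direct repeat near one of its own transcription starts described in the human and mouse genes. The 30 bases around that repeat in the rat gene, from the RefSeq promoter table (GRCr8, chr15:11336410-11336439, plus strand), are shown because the repeat is the best known retinoic acid response element of the family, with its 2 half-sites in capitals and 5 bases between them.
Rarb: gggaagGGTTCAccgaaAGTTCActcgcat
The repeat lies 25 to 41 bases after the annotated start. Its core, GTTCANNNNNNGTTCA on either strand, was found in 0.418% of 33469 promoter windows of the same table, in the 1 window of Rarb and in neither of the 2 windows of Thra. A thyroid-type direct repeat, GGTCANNNNNGGTCA on either strand, was found in 0.0717% of the windows and in none of those of Thra or Rarb. These matches describe letters in a window and were not tied to any signal.

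Signals are MAS5 intensities, rescaled per array and given either on that scale or as log2. A floor of 32 was set under them, and a probe set was tested in a region where its mean log2 signal there reached the log2 of 100. Of the 5 probe sets, M31174_at and X12744_at (Thra) passed in all 6 regions and M31174_g_at (Thra) in 5, all except the ventral tegmental area. AJ002942cds_at (Rarb) passed only in the nucleus accumbens. The remaining Thra probe set, rc_AA997529_s_at, lay at the floor on 47 of 63 arrays, reached at most 56.4, and passed nowhere. The median signal of an array was 119 to 168. The region markers Th and Oxt were each highest in a single region. Th, which makes dopamine precursor, was 11331 to 13787 in the ventral tegmental area and at most 847 elsewhere. The hormone gene Oxt was 7644 to 9753 in the lateral hypothalamus. It was 56.6 to 2936 in the amygdala (median 1018) and at most 156 in the other regions. The extent of the dissections was not tested.

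A pair of array groups stood apart in probe sets that do not measure the rat transcripts of interest. In the lateral hypothalamus the 6 antisense controls averaged 8.13 ± 0.21, 6.84 ± 0.17 and 6.75 ± 0.15 (log2, SD, n = 4 each) with no, short and long access. In the ventral tegmental area they averaged 7.10 ± 0.03, 7.41 ± 0.08 and 8.04 ± 0.19 (SD, n = 3 each) in the same order. The 9 spike-in controls moved with them in both regions, at 12.05, 11.61 and 11.39 in the lateral hypothalamus and 11.55, 11.95 and 12.32 in the ventral tegmental area. Access in these regions and the state of the arrays cannot be told apart. In the medial prefrontal cortex the actin controls for the 3' and 5' ends of the transcript varied between arrays within each group. The log2 difference of 3' from 5' was 0.03 to 1.93 with no, -0.01 to 1.58 with short and 0.07 to 1.35 with long access. It reached at most 0.62 in the other regions. Its part in the Thra values was not tested.

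The Thra signal differed between regions in all 3 probe sets that could be tested, and it was lowest in the ventral tegmental area or the septum. M31174_g_at covered the widest range, 11.8-fold between region means. Its mean log2 signal was 9.75 in the nucleus accumbens, then 8.96 in amygdala, 8.81 in medial prefrontal cortex, 8.01 in septum, 7.82 in lateral hypothalamus and 6.19 in ventral tegmental area. The lowest, median and highest signals were 604, 829 and 1059 in the nucleus accumbens (n = 12), against 32, 61.6 and 219 in the ventral tegmental area (n = 9). These regions did not overlap, and 2 arrays of the ventral tegmental area lay at the floor.

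X12744_at spanned 2.84-fold. Its means were 9.45 in nucleus accumbens, 9.32 in medial prefrontal cortex, 8.96 in amygdala, 8.60 in septum, 8.34 in lateral hypothalamus and 7.94 in ventral tegmental area. M31174_at spanned only 1.61-fold and put the regions in another order, with 11.96 in medial prefrontal cortex, 11.77 in amygdala, 11.75 in nucleus accumbens, 11.57 in lateral hypothalamus, 11.38 in ventral tegmental area and 11.27 in septum. So the nucleus accumbens led in M31174_g_at and X12744_at, while the medial prefrontal cortex led in M31174_at.

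**Figure D1:**
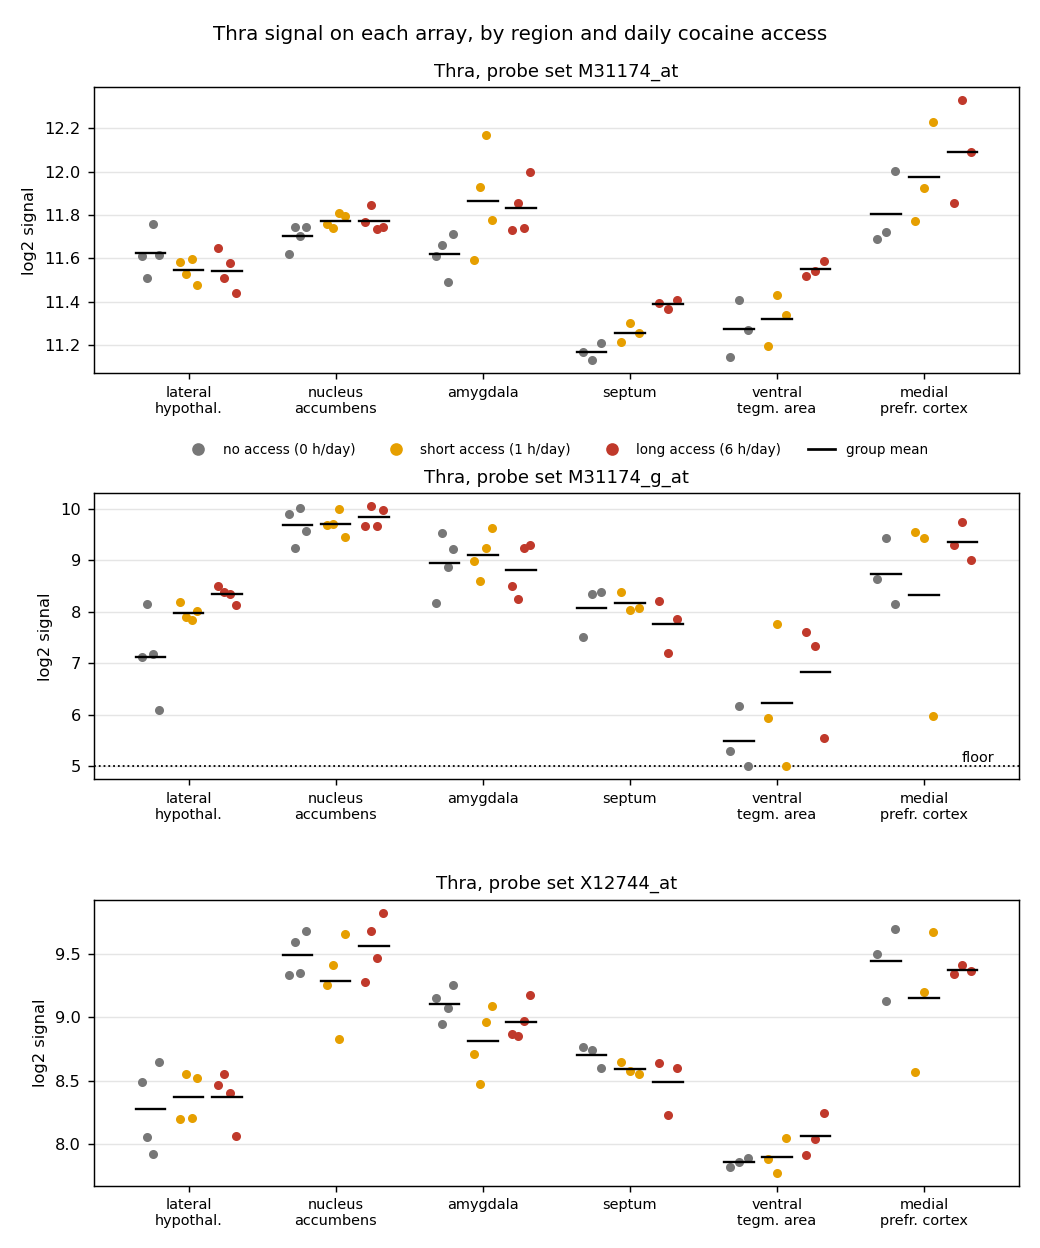
Log2 signal of 3 Thra probe sets on each array (points) by region, with the access groups in order of hours per day and a black line at each group mean; the vertical axes differ between panels. M31174_g_at reaches the floor on 2 arrays of the ventral tegmental area, and in M31174_at every long access array of the septum, ventral tegmental area and amygdala lies above every no access array of the same region.

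Each region was set against the mean of the other 5 in one limma fit of all arrays. Outside the lateral hypothalamus, whose arrays led to the choice of Thra, 14 of 15 comparisons of Thra probe sets passed an adjusted p of 0.05. Such calls were common on this array: of all probe sets, 68.5% passed for the ventral tegmental area, 67.2% for the medial prefrontal cortex, 65.9% for the accumbens, 50.9% for the septum and 50.1% for the amygdala. All 3 probe sets were higher in the nucleus accumbens than in the other regions, by 1.79 ± 0.22 (M31174_g_at), 0.82 ± 0.08 (X12744_at) and 0.16 ± 0.04 (M31174_at) on the log2 scale (SE), with adjusted p of 4.22e-10, 2.51e-13 and 0.000924. All 3 were also higher in the amygdala (0.85, 0.23 and 0.19) and in the medial prefrontal cortex (0.66, 0.66 and 0.41).

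In the ventral tegmental area all 3 were lower, with differences of -2.48 ± 0.25, -0.99 ± 0.09 and -0.28 ± 0.05, and without its 3 long access arrays the differences were -2.80, -1.05 and -0.37. In the septum M31174_at (-0.41) and X12744_at (-0.21) passed, and M31174_g_at did not (-0.30, adjusted p = 0.317). The septum value of X12744_at was close to the threshold and lost its call when any 1 of 22 of the 63 arrays was left out (adjusted p up to 0.149). As a description with no test, the lateral hypothalamus stood at -0.51 (X12744_at), -0.52 (M31174_g_at) and -0.06 (M31174_at) relative to the other regions. The M31174_g_at value there rests on the no access arrays that stood apart: without these 4 arrays it was -0.18.

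Among the 10 pairs of regions other than the lateral hypothalamus, 26 of 30 Thra comparisons passed, where 59.3% of all comparisons of these pairs did. The 4 that did not are neighbours in the order of levels. For M31174_at the nucleus accumbens and amygdala differed by -0.02 and the septum and ventral tegmental area by -0.11. For M31174_g_at the amygdala and medial prefrontal cortex differed by 0.15. For X12744_at the nucleus accumbens and medial prefrontal cortex differed by 0.13.

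The probe sets of Thra thus followed one another across regions more than across arrays within a group. As a description, M31174_g_at and X12744_at correlated with r = 0.91 over the 18 group means and r = -0.41 over the deviations of the 63 arrays from these means. M31174_at and M31174_g_at, whose identifiers share an accession, gave r = 0.64 and r = -0.17, and M31174_at and X12744_at gave r = 0.69 and r = 0.32. The points share the arrays and their scaling, and single arrays weigh heavily. Both M31174_g_at and X12744_at varied most among the short access arrays of the medial prefrontal cortex (SD 2.03 and 0.55). There M31174_g_at gave 749.6, 697 and 63.3, and X12744_at 380, 588 and 818. The probe sets may reach different parts of the transcripts, and the probes were not analysed here.

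**Figure D2:**
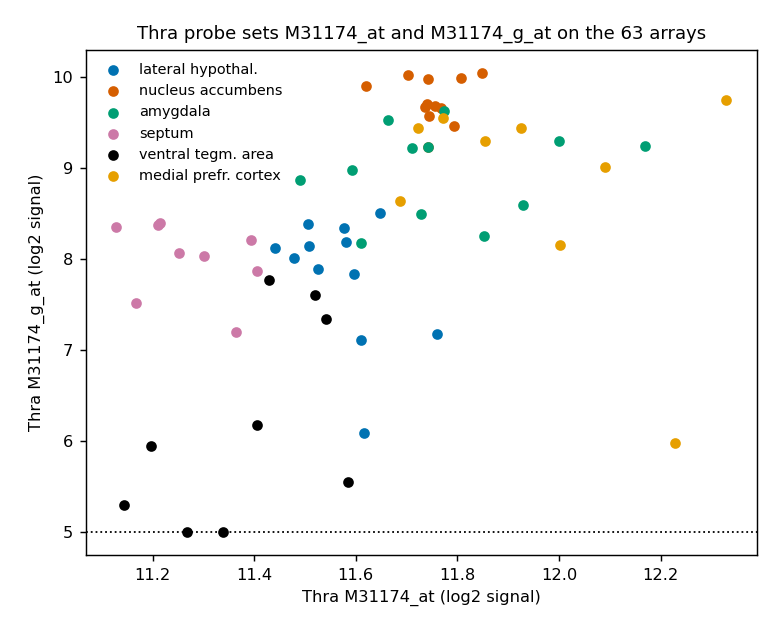
Log2 signal of M31174_g_at (vertical) against that of M31174_at (horizontal), both Thra, on 63 arrays coloured by region; the dotted line is the floor. The 5 arrays lowest on the vertical axis are from the ventral tegmental area, and the correlation over all arrays is 0.49.

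In the 5 regions other than the lateral hypothalamus, M31174_at of Thra was slightly higher with long than with no access in each region, and the difference passed the test only as a mean over these regions, in which the other Thra probe sets did not pass. In the septum its signals were 2301, 2239 and 2371 with no access, 2375, 2523 and 2440.4 with short access, and 2691, 2635 and 2714 with long access. No group overlapped another there. The difference of long from no access was 0.22 ± 0.06 (log2, SE) with limma's adjusted p = 0.0913, so it did not pass.

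In the ventral tegmental area M31174_at gave 2264, 2712 and 2465 with no access, 2347, 2759 and 2589 with short access, and 2936, 2981 and 3072 with long access. The long access arrays lay above all others. Long minus no access was 0.28 ± 0.08, with limma's adjusted p = 0.0969, and did not pass. These long access arrays are the ones whose antisense controls stood 0.93 above those of no access, and the part of that shift in the difference was not tested.

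In the amygdala the signals of M31174_at were 3128, 3243, 2877 and 3352 with no access, 3089.9, 3898, 4604 and 3503 with short access, and 3393, 3699, 3423 and 4095 with long access. Every long access array was above every no access array, but the difference of 0.21 ± 0.13 did not pass (adjusted p = 0.894). In the medial prefrontal cortex they were 3298, 3380.3 and 4100 with no access, 3496, 3890 and 4798 with short access, and 3702, 5144 and 4361 with long access, for replicates 1, 2 and 3. The long and no access groups overlapped, with a difference of 0.29 ± 0.19 (adjusted p = 0.996). Between arrays of the same replicate number, long minus no access was 0.17, 0.61 and 0.09 and short minus no access 0.08, 0.20 and 0.23, and the fit with the number as a block did not pass for either (0.29 and 0.17, limma's adjusted p 0.993 and 0.996). The nucleus accumbens showed the smallest of the 5 differences, 0.07 ± 0.07 (adjusted p = 0.638).

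Taking the mean of these 5 regions, M31174_at rose with long against no access by 0.21 ± 0.05 on the log2 scale (SE, 95% interval 0.12 to 0.30), or 1.16-fold, with limma's adjusted p = 0.0205. The difference was positive in 5 of 5 regions. It was 1 of 2 probe sets that passed among 858 tested (0.233%), and the other one, AF030091UTR#1_g_at, has no gene symbol. At an unadjusted p under 0.05 there were 81, and the median difference of all probe sets was 0.02. The call depended on single regions and arrays. Leaving out the amygdala, ventral tegmental area or medial prefrontal cortex gave 0.21, 0.20 and 0.19 with adjusted p of 0.0815, 0.0666 and 0.0706. Leaving out 1 array in turn gave 0.19 to 0.24, and 4 of the 63 arrays ended the call when left out (no access replicate 1 of the ventral tegmental area, long access replicate 2 and no access replicates 1 and 2 of the medial prefrontal cortex), with adjusted p up to 0.0734. The fit treats the 17 arrays of each access group in these regions as separate, although they must in part share rats. With access group and replicate number together as a random block across regions the value was 0.21 (adjusted p = 0.0342), but the numbers are not given as those of rats. Over the same 5 regions the antisense controls were 6.87 with long and 6.65 with no access, and the spike-in controls 11.32 and 11.12.

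In this mean neither comparison of short access passed: short minus no access was 0.13 (adjusted p = 0.369) and long minus short access 0.09 (adjusted p = 0.718). Long minus no access over the 5 regions was 0.33 ± 0.24 for M31174_g_at (adjusted p = 0.656) and -0.03 ± 0.08 for X12744_at (adjusted p = 0.929). M31174_g_at varied most between arrays of 1 group: in the medial prefrontal cortex it gave 399, 695 and 286 with no access, 749.6, 697 and 63.3 with short access, and 629, 863 and 517 with long access. In the ventral tegmental area, where it was too dim to be tested, it gave 39.3, 72.3 and 32, then 61.6, 219 and 32, and 196, 162 and 47.0 in the same order of groups, which overlap. Without the filter long minus no access was 1.35 there (adjusted p = 0.739).

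X12744_at was higher with long than with no access in the ventral tegmental area without overlap, at 241, 263 and 304 against 226, 233 and 237, a difference of 0.21 ± 0.15 that did not pass (adjusted p = 0.542).

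**Figure D3:**
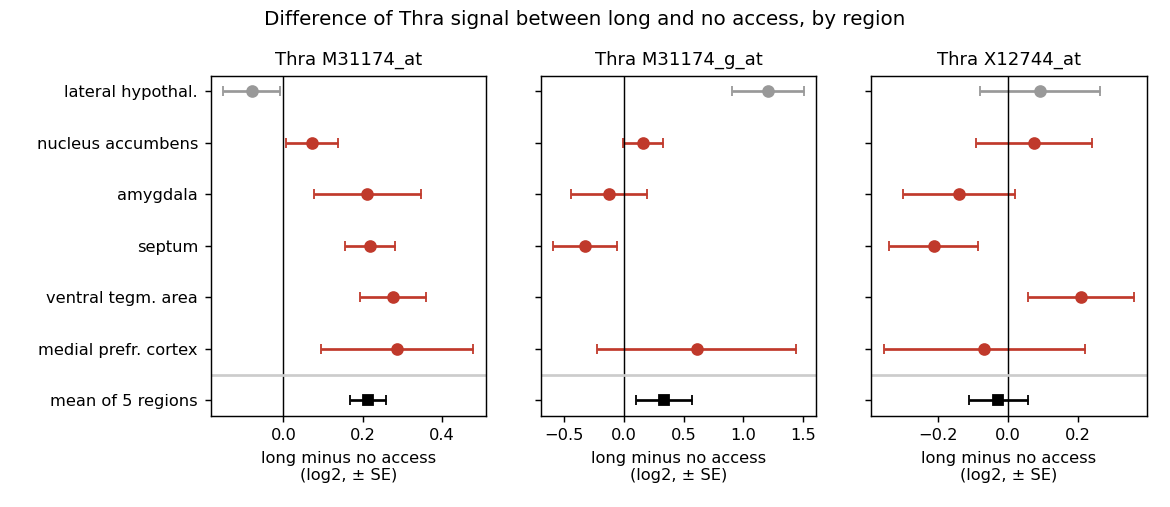
Long minus no access (log2, ± SE) of 3 Thra probe sets in each region, with the mean of the 5 regions other than the lateral hypothalamus as a black square; the scales of the horizontal axes differ, and M31174_g_at was not tested in the ventral tegmental area. The lateral hypothalamus (grey) was used to choose the gene. For M31174_at the 5 red points lie above 0, while the other probe sets have points on both sides.

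Within single regions no Thra or Rarb comparison of access groups passed. Of 45 such comparisons outside the Thra values of the lateral hypothalamus, 0 passed limma's adjusted threshold, where 0.859% of all probe set comparisons of the 5 regions did. At an unadjusted p under 0.05 there were 3, all of M31174_at, and the lowest adjusted p was 0.0913. M31174_at had non-overlapping groups, higher in the first-named, in 6 of 15 comparisons, X12744_at in 1 of 15 and M31174_g_at in 0 of 12, and none had a lower one. Over all probe set comparisons of these regions 5.79% were without overlap and higher and 4.96% lower. The 3 comparisons of a region share arrays.

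In the lateral hypothalamus, the region that led to the choice of Thra, M31174_g_at gave 139, 284, 145 and 68.2 with no access, 293, 239, 229 and 258 with short access, and 365, 335, 325 and 279 with long access. One no access array reached the level of the long access arrays, and the others lay below every short and long access array. Long minus no access was 1.21 ± 0.30 on the log2 scale, and short minus no access 0.85 ± 0.30. M31174_at (-0.08 ± 0.07) and X12744_at (0.09 ± 0.17) did not show this difference. In that comparison 29.7% of all probe sets passed.

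Other measures moved with the same no access arrays. Beside the antisense and spike-in controls, the summed signal of 8 astrocyte genes was 48778 to 60721 with long access, against 68131 to 76437 with no access, and that of 4 microglia genes 1949 to 2740 against 3572 to 4178. The 6 oligodendrocyte genes summed to 40787 to 46885 against 48097 to 54446, the vessel gene Slc2a1 gave 2016 to 2784 against 3328 to 4017, and the 3 choroid plexus genes overlapped. The sums do not speak for each gene. Of the 6 oligodendrocyte genes 2 rose (Sox10 by 1.14 and Mag by 0.55) and 3 fell, of the 8 astrocyte genes 1 rose (the potassium channel Kcnj10 by 0.91) and 3 fell, and of the 3 microglia genes that could be tested 3 fell. Their part in the Thra values was not tested. In bulk tissue fewer cells of a type and less RNA per cell cannot be told apart.

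Of 10 genes of thyroid hormone handling and response on the array, 9 were tested. The list overlaps those above: Mag, Mbp and Mog are also oligodendrocyte genes and Slc2a1 is also the vessel gene. With long access in the lateral hypothalamus, 2 of the 9 rose relative to no access (the myelin gene Mag by 0.55 and the sodium pump subunit Atp1b2 by 1.39) and 4 fell (the glucose transporter Slc2a1, at -0.71, the myelin genes Mbp, at -0.36, and Mog, at -0.30, and the pump subunit Atp1b1, at -0.31). The median of the 9 was -0.16, beside -0.03 over all 718 probe sets, of which 96 rose and 117 fell. In the mean over the other 5 regions 0 of the 9 passed in either direction, with a median of 0.00 beside 0.02 for all. Only 0.233% of all probe sets passed in that mean, so the count of 0 is not a result about these genes.

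Rarb was high in the nucleus accumbens and lower in every other region. Its 12 signals there were 654, 676, 643 and 525 with no access, 602, 436, 649 and 709.6 with short access, and 537, 578, 619 and 628 with long access. The access groups overlapped. In the other regions the lowest, median and highest signals were 32.3, 121 and 169 in septum, 32, 97.3 and 192 in lateral hypothalamus, 32, 72.3 and 145 in amygdala, 32, 36.7 and 127 in ventral tegmental area, and 32, 45.3 and 64.9 in medial prefrontal cortex.

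No array of another region reached the lowest of the nucleus accumbens. The mean log2 signal was 9.23 ± 0.19 in the nucleus accumbens (SD, n = 12), against 6.59, 6.13, 6.12, 5.81 and 5.49 in the regions in the order just given. The nucleus accumbens stood 3.20 ± 0.25 (SE) above the mean of the other 5. Among those, 12 arrays lay at the floor and the groups overlapped widely, so their order is within the spread of arrays.

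**Figure D4:**
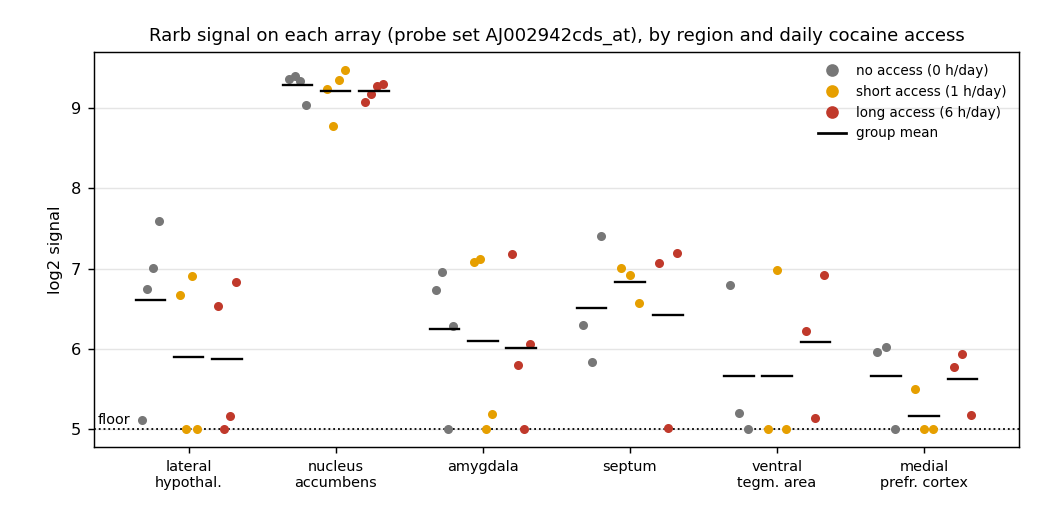
Log2 signal of the Rarb probe set on each array (points) by region and access group, with black lines at group means and a dotted line at the floor. The 12 arrays of the nucleus accumbens lie above all others, and their access groups overlap.

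No difference of Rarb between access groups was detected. In the nucleus accumbens long minus no access was -0.08 ± 0.14 (log2, SE, 95% interval -0.38 to 0.22, adjusted p = 0.826), short minus no access -0.08 (adjusted p = 0.933) and long minus short access -0.00 (adjusted p = 0.997). The interval leaves room for a fall of up to 0.38 or a rise of up to 0.22. In the 5 regions where the probe set was too dim to be tested, the 15 comparisons without the filter gave 0 calls and a lowest adjusted p of 0.594.

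The genes most like Rarb all had their highest mean in the nucleus accumbens. Rarb was chosen by its signal there, so the likeness is a description that restates that choice. Over the 18 group means, among 776 probe sets with 1 symbol, the 5 genes most like Rarb were the ephrin receptor Epha8 (r = 0.95), the dopamine receptor Drd1 (0.95), the adenosine receptor Adora2a (0.92), the protein kinase A subunit Prkar2b (0.90) and the glutamate receptor Grm4 (0.87). Epha8 and this probe set of Drd1 lay at or near the floor in the other 5 regions. By Spearman's rank correlation, which weights the low regions equally, 0 of the 5 stayed among the top 5. The direct repeat found in the Rarb window was absent from the 3 windows of these genes in the table (Epha8, Drd1 and Prkar2b).

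Of 11 medium spiny neuron genes on the array, 10 were tested and 9 were higher in the nucleus accumbens than in the other 5 regions, with a median of 2.70 beside -0.01 over all probe sets, of which 279 were higher and 286 lower. Drd1 was 3.80 higher, the dopamine receptor Drd2 3.43, Adora2a 3.24 and the enkephalin precursor Penk 2.75. In the mean over the 5 regions other than the lateral hypothalamus, 0 of the 10 passed for long against no access. There 0.233% of all probe sets passed, so the count of 0 is not a result about these genes.

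For Thra, the genes most like M31174_at were the calcium channel subunit Cacna2d1 (r = 0.92), Mmd (0.87), the calcium channel Cacna1b (0.87), the synaptic vesicle gene Syn2 (0.86) and Nos1ap (0.86). Those most like M31174_g_at were the kainate receptor subunit Grik5 (0.95), the chemokine Cx3cl1 (0.93), Ctxn1 (0.93), the calcium channel subunit Cacnb3 (0.92) and the kinase subunit Camk2b (0.91). Those most like X12744_at were the calcium pump Atp2b1 (0.98), the postsynaptic scaffold Dlg4 (0.97), Camk2b (0.96), the GABA receptor subunit Gabrd (0.96) and the potassium channel Kcnh1 (0.95). Camk2b was in the lists of both M31174_g_at and X12744_at, and no gene of the M31174_at list was in another. These are descriptions over points that share arrays.

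The array named 8 of 42 nuclear receptors: Thra, Rarb, the retinoic acid receptor Rara, the retinoid X receptor Rxrg, the liver X receptor Nr1h2, the activity-induced orphan receptors Nr4a1 and Nr4a3, and the estrogen receptor Esr2. Nr1d1, which overlaps Thra on the opposite strand, and Thrb, Rxra and Rxrb were not analysed here. Rxrg, a possible DNA-binding partner of Rarb, was 187 to 427 in the nucleus accumbens (n = 12), 84.6 to 167 in the amygdala (n = 12) and at most 65.3 elsewhere. Rxrg in the nucleus accumbens was 2.69 ± 0.09 (SE) above the mean of the other regions. It lay at the floor on 11 of 12 arrays of the lateral hypothalamus and 8 of 9 of the medial prefrontal cortex. In the septum and the ventral tegmental area it did so on 9 of 9 each. Arrays at the floor show no spread, so this SE overstates the precision. Rxrg passed the filter only in the nucleus accumbens and amygdala, where it was high, so the difference is given as a description with no test. Rarb and Rxrg differed in the amygdala, where Rxrg was 1.31 above the other regions and Rarb was no higher than in the septum.

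The 2 probe sets of Rara that could be tested gave the regions another order. The remaining Rara probe set, AJ002940cds_s_at, reached at most 60.6 and was not tested. U15211_at was 0.14 above the other regions in the nucleus accumbens (adjusted p = 0.176), highest in the septum (0.37, adjusted p = 0.00307) and -0.48 in the ventral tegmental area. U15211_g_at was highest in the nucleus accumbens (0.55, adjusted p = 0.00612) and -0.995 in the ventral tegmental area (adjusted p = 1.83e-05). Nr4a1 (U17254_g_at) was 1189 to 2169 in the medial prefrontal cortex and at most 857 elsewhere. The other 6 receptors made 102 comparisons of access groups in the 5 regions, of which 0 passed (lowest adjusted p 0.170), where 0.859% of all probe set comparisons did, so the count of 0 is not a result about these receptors. Over the mean of the 5 regions, M31174_at of Thra was the only tested probe set of the 8 receptors to pass for long against no access. The other Thra probe sets did not pass there, and 0.233% of all probe sets did. As given above, the call of M31174_at depended on single regions and arrays. In the lateral hypothalamus Nr1h2 fell by 0.24 with long access relative to no access (adjusted p = 0.0383). In that comparison 29.7% of all probe sets passed, and access cannot be told apart from the state of the arrays.

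**Figure D5:**
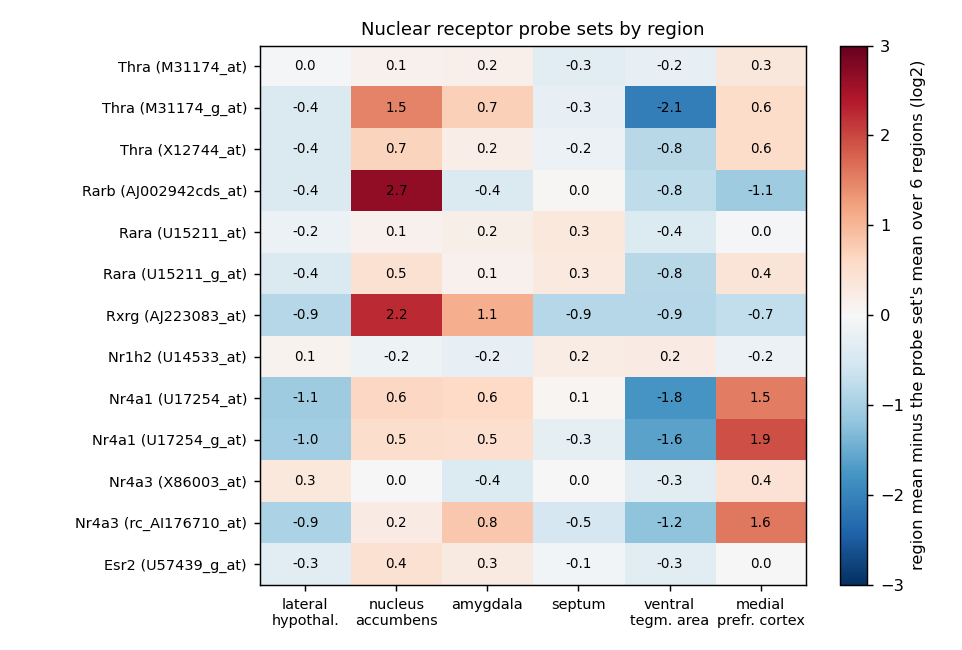
Mean log2 signal of each region minus the mean of the 6 regions for each nuclear receptor probe set with a median of at least 100 in 1 region; red is above and blue below that mean. Rarb and Rxrg are highest in the nucleus accumbens (2.7 and 2.2), M31174_g_at of Thra is 1.5 there and -2.1 in the ventral tegmental area, and the Nr4a1 probe sets are highest in the medial prefrontal cortex.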

How the data were processed

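The deposited values are signal intensities on a linear scale from 63 arrays, made by the authors with MAS5, per the submitters' processing notes; its version, scaling target and detection calls are not given in the sources used here. The 2% trimmed mean of the deposited intensity was 250.8 to 251.3 on all arrays. Of 1322 probe sets, 59 controls were set aside. A factor per array then brought the 2% trimmed mean of the others to 500, a floor of 32 was set and log2 was taken. With limma 3.58.1 in R 4.3.3 (lmFit, eBayes with an intensity trend), access groups were compared within each region, and regions and means over regions in 1 fit of 18 groups, with Benjamini-Hochberg adjustment over all probe sets tested and a threshold of 0.05. Probe sets were tested where their mean log2 signal reached that of 100 in the region, or in at least 1 region for the fit of all arrays. Differences of mean log2 signal understate changes near background, and precision is limited by how many arrays there are. The fits were checked on simulated data with known changes of long from no access in each region. Of changes of 0.5 (log2), 7.14% were recovered in the medial prefrontal cortex and 23.7% in the amygdala. The other regions gave 59.6% to 69.8%. Of changes of 1.0, 53.2% were recovered in the medial prefrontal cortex, 87.8% in the amygdala and 90.5% to 95.8% elsewhere. A small difference that did not pass in the medial prefrontal cortex or amygdala is therefore little evidence of no change.

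Named were all probe sets of the 2 genes, the 5 genes most correlated with each over 18 group means, up to 4 genes of each list with the smallest p, and fixed receptor and region marker genes; the unnamed probe set and the remaining receptors' values were chosen after their values were seen. Both genes, the lists and the tests were chosen with earlier results of these data known. Gene symbols come from the platform annotation, and both genes matched a RefSeq table by Entrez identifier.

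Labels share replicate numbers across access groups. Of 63 same-numbered pairs of arrays 27 had deviations correlated above 0.1 (range -0.13 to 0.73). All pairs did so for long with short and short with no access in the medial prefrontal cortex and for long with short access in the amygdala. There the numbers were taken as pairing the arrays. Elsewhere not all pairs did so, and whether the numbers pair the arrays is not known. Alternatives are given in the closing section.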

Additional observations from a re-analysis of the deposited data

How the results depend on the processing

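No result changed direction past the threshold under any alternative run: of 1250 values under other settings 1218 stayed on the same side or within the spread, and of 3912 with 1 array left out 3877 did. In the mean over the regions other than the lateral hypothalamus, M31174_at was 0.21 higher with long than with no access. This mean difference kept its call under every other setting except the mean of 4 regions. There it was 0.21, 0.20 and 0.19 (adjusted p 0.0815, 0.0666 and 0.0706) without the amygdala, ventral tegmental area and medial prefrontal cortex. Being a mean, it does not show a rise shared by the single regions. With 1 array left out the mean difference was 0.19 to 0.24, and the 4 arrays that ended the call gave 0.19 to 0.20. Leaving out regions or arrays that stood apart, and the random block across regions, were chosen after seeing the data. With no filter on dim probe sets the long minus no access difference of M31174_at in the septum passed (0.22, adjusted p = 0.0164), and with a replicate block that in the ventral tegmental area (0.28, adjusted p = 0.0374), so the count of comparisons within regions that passed was 1 under each and 0 otherwise. The replicate block changed no other call. In the ventral tegmental area not all same-numbered pairs of long with no access correlated above 0.1 (0.18, 0.05 and 0.30). Whether the numbers pair the arrays there is not known.

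Among region differences of Thra, X12744_at in the septum did not pass with no filter (-0.21), as deposited (-0.19), without the long access arrays of the ventral tegmental area (-0.19) or with no access arrays alone (-0.13). It ranged from -0.23 to -0.16 with 1 array left out and lost its call in 22 of these 63 fits. M31174_g_at in the septum passed with array weights (-0.42). X12744_at in the amygdala did not pass with quantile normalization (0.18), nor M31174_at there with no access arrays alone (0.10). M31174_g_at in the medial prefrontal cortex ranged from 0.46 to 1.05 with 1 array left out, losing its call without no access replicate 2 or short access replicates 1 or 2. The septum minus the medial prefrontal cortex ranged from -1.19 to -0.60 in this probe set and lost its call in 6 of 63.

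Between other pairs of regions, M31174_at in the amygdala minus the medial prefrontal cortex did not pass with array weights (-0.14), quantile normalization (-0.10) or no access arrays alone (-0.19), and in the septum minus the ventral tegmental area it passed with array weights (-0.11) and quantile normalization (-0.16). With no access arrays alone, which leaves fewer arrays, 4 further pairs did not pass: M31174_g_at nucleus accumbens minus amygdala (0.73) and septum minus medial prefrontal cortex (-0.66), and X12744_at amygdala minus septum (0.40) and amygdala minus medial prefrontal cortex (-0.33). Untested values of the lateral hypothalamus that moved by more than the spread did so with no access arrays alone: M31174_at to 0.11 against the other regions and 0.35 against the ventral tegmental area, and M31174_g_at to -0.95 against the septum. The causes were not tested, apart from the smaller number of arrays. The array-control shifts touch values of the lateral hypothalamus and the ventral tegmental area, and the floor touches dim probe sets. Of the 5 genes most like each probe set, Spearman's correlation kept 3 for M31174_at, 1 for M31174_g_at, 3 for X12744_at and 0 for Rarb.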
